A study of Mus musculus with 23 samples.

Results

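Genes that were read in B16 melanoma tumors and hardly at all in tumors of the other models are described here, leaving out the pigment genes. A symbol was kept when its mean over the 3 B16 tumors was at least 5 CPM (counts scaled to a tumor total of 1000000) and each of the 12 other tumors was under 1 CPM. Of 24940 gene symbols in the tumor table, 84 passed both limits. *Tyr*, *Gpr143* and *Oca2* were then dropped as pigment genes, which left 81 members: 75 protein-coding genes and 6 non-coding RNAs. The rule uses the B16 level and the level in every other tumor, so the contrast between B16 and the other models describes how the genes were chosen and is not tested for them.

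The tumors were grown from cell lines placed under the skin of the flank of adult female C57BL/6 mice, 500000 cells per mouse, and a fragment of the whole tumor was sequenced, so that host cells are in each library. The 5 models were B16 (cell line B16-F10, melanoma), EO771 (EO771.LMB, breast carcinoma), LL2 (lung carcinoma), MC38 (colon carcinoma) and Pan02 (pancreatic ductal carcinoma, called Pan01 in the tumor titles), each with 3 tumors, no drug treatment and no engineered allele named in the labels. CAFs, the cancer-associated fibroblasts sorted as FAP-positive cells from the CD45-negative fraction, were read from EO771, LL2, MC38 and Pan02 tumors, with 2 libraries each and none from B16. Each model rests on 1 cell line, so the line and the cancer type cannot be told apart.

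Melanocytes come from the neural crest, which also gives rise to Schwann cells and other peripheral glia. The transcription factors *Mitf* and *Sox10* drive the pigment programme, in which *Tyr*, *Tyrp1* and *Dct* make melanin and *Pmel* builds the fibrils of the melanosome. Several genes of the set are known from quite other tissues: gasdermin C (*Gsdmc*) belongs to a family of pore-forming proteins of pyroptosis, *Abca12* loads lipids into the lamellar granules of the epidermis, and *Bfsp2* (phakinin) is an intermediate filament protein of the beaded filaments of lens fibre cells.

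The 3 genes that lead the set by name were high in each B16 tumor. *Gsdmc* (chr15:63775971-63808739, minus strand, mm10) had 87 CPM in B16 tumor 1, 48.9 CPM in tumor 2 and 101 CPM in tumor 3, and at most 0.114 CPM in the 12 other tumors. These 12 tumors held 8 *Gsdmc* counts in all, and 6 of them had none. *Abca12* (chr1:71243090-71414910, minus strand) had 52.7, 34.6 and 61 CPM in the B16 tumors and at most 0.372 CPM elsewhere, in MC38 tumor 2. *Bfsp2* (chr9:103424924-103480328, minus strand) had 154, 185 and 232 CPM and at most 0.61 CPM elsewhere, in LL2 tumor 1. All 3 were lowest in B16 tumor 1 or 2 and highest in tumor 3, and their B16 values did not overlap with any other tumor. The rule favours this, although it limits the B16 mean and not the single B16 tumor. Over the set the smallest ratio of the lowest B16 tumor to the highest other tumor was 4.66.

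**Figure D1:**
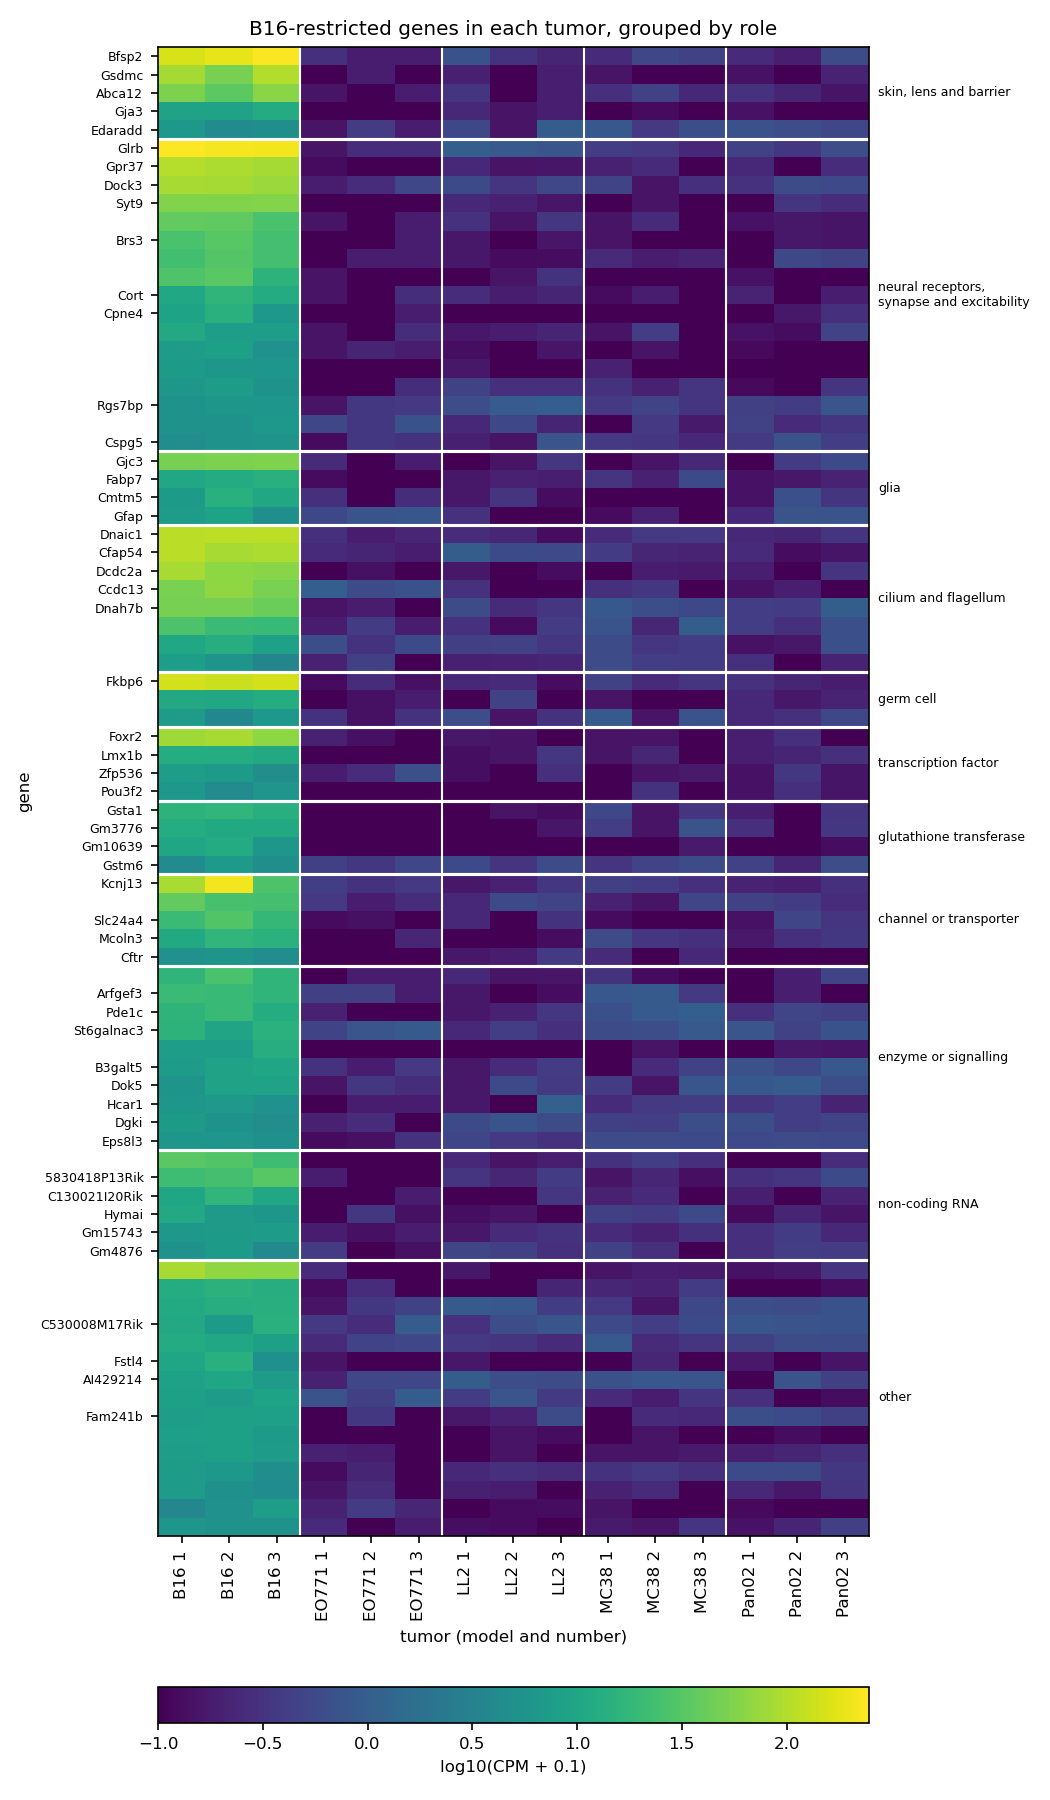
Each row is 1 of the 81 members and each column 1 of the 15 tumors, with the colour giving log10(CPM + 0.1), the rows grouped by role and the genes named in the text labelled. The B16 columns hold the high values of every row, Kcnj13 differs most among them (27.3 to 216 CPM), and all other columns lie under 1 CPM.

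Summed over the 81 members, the B16 tumors had 2393, 2457 and 2222 CPM, and the other 12 tumors had 9.03 to 20.7 CPM. The 10 pigment genes summed to 26996, 29119 and 23844 CPM in the same B16 tumors, so the members took 8.44% to 9.32% as many counts as the pigment genes. In B16, 15 members had 50 CPM or more, 29 had 10 to 50 CPM and 37 had less than 10 CPM, with a median of 10.8 CPM. Library totals ran from 10035173 to 21946486 counts, and 3 counts, taken here as the lowest readable level of a library, stood for 0.137 to 0.261 CPM in the 12 other tumors. All 81 members passed the call for a higher level in B16, which the rule brings about (a call is a Benjamini-Hochberg adjusted p under 0.05 in edgeR's quasi-likelihood test with a log2 fold change beyond 1 either way). The same call was made for 13.1% of the 15722 genes tested, and a lower level in B16 for 19.6%.

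*Glrb*, which encodes the beta subunit of the inhibitory glycine receptor, was the highest member by CPM, with 246, 222 and 211 CPM in the B16 tumors and at most 0.949 CPM elsewhere. Levels of different genes compare only per length of transcript. On that scale *Bfsp2* came first with 122 CPM per kb, followed by *Fkbp6* with 98.4, *Glrb* with 73.3, *Dnaic1* with 45.3, *Kcnj13* with 36.7 and *Gsdmc* with 33.3 CPM per kb. *Abca12*, with a transcript of 8268 bases, had 5.98 CPM per kb. For scale, *Pmel* had 3734, *Tyr* 142, *Oca2* 40.2 and *Gpr143* 37.2 CPM per kb in the same tumors. *Bfsp2* lay between *Tyr* and *Oca2* on this scale, and *Kcnj13* and *Gsdmc* lay just under *Gpr143*.

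**Figure D2:**
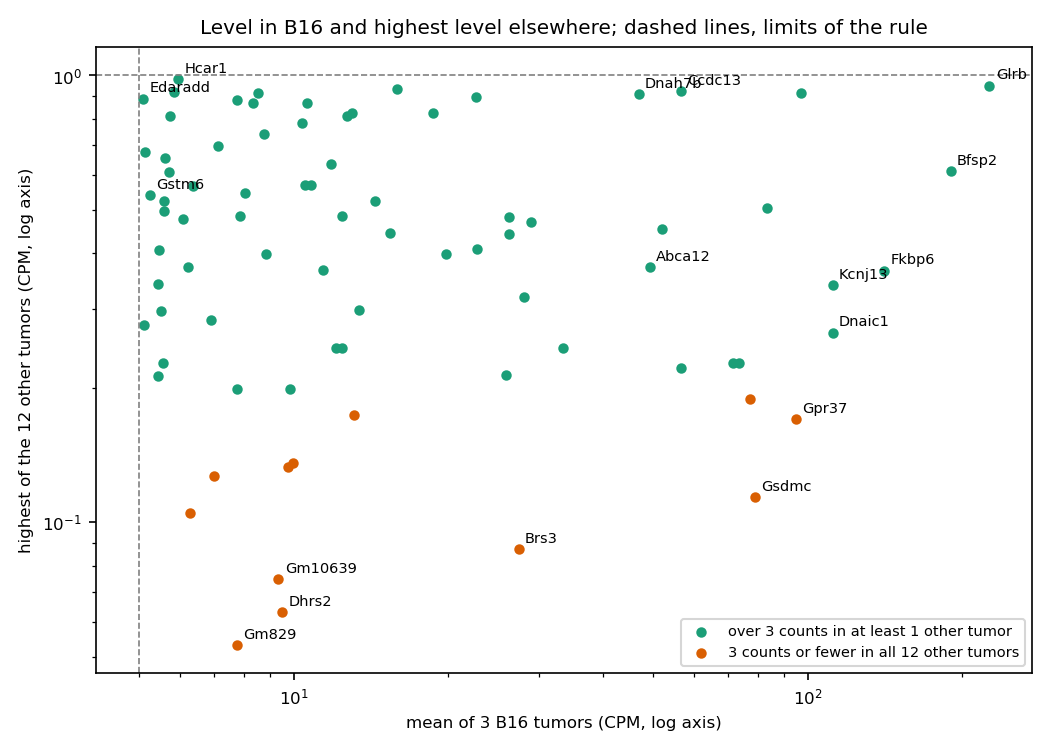
Each point is 1 member, with its mean over the 3 B16 tumors on the x axis and its highest value among the 12 other tumors on the y axis, both in CPM on log axes. Gsdmc (78.9 and 0.114 CPM) and Glrb (226 and 0.949 CPM) are both high in B16 and far apart in what other tumors hold, and 12 members, in orange, never exceed 3 counts outside B16.

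The neighbourhood of both limits was populated. Just inside the B16 limit were *Edaradd* (5.1 CPM), *Cftr* (5.11 CPM) and *Cspg5* (5.13 CPM), and just outside it *Slc35f1* (4.85 CPM), *Klf12* (4.79 CPM) and *C1ql1* (4.53 CPM). Just inside the limit on the other tumors were *Hcar1* (0.98 CPM in LL2 tumor 3), *Glrb* (0.949 CPM) and *Pde1c* (0.934 CPM). Just outside it were *Cdh19*, a cadherin of Schwann cell precursors with 81.5 CPM in B16 and 1.01 CPM in its highest other tumor, *Tph2* (5.26 and 1.01 CPM) and *Neil2* (10.5 and 1.02 CPM).

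By known role, the largest group was 17 genes of neural receptors, synapse and excitability, a grouping made with the values known. Their summed level was 678, 669 and 581 CPM in the B16 tumors against 0.921 to 3.98 CPM in the others. Besides *Glrb* they included *Gpr37*, an orphan receptor of myelinating glia (105, 94.4 and 85.8 CPM), *Dock3*, a Rac activator of neurons (88.3, 86.1 and 76.1 CPM), the calcium sensor *Syt9* (56.8, 56.2 and 57.5 CPM) and *Brs3*, a bombesin receptor subtype (26.4, 31.9 and 23.8 CPM). The neuronal list, which summed to 135 to 227 CPM in B16, was almost all *Tubb3*, a neuronal beta-tubulin (133 to 222 CPM), and its other 13 genes summed to 2.24 to 4.93 CPM in B16 and 4.76 to 32.7 CPM elsewhere. The list (14 genes) had 8 genes tested, of which 1 was higher in B16 (*Tubb3*), 3 were lower and 4 were not called. *Tubb3* was not particular to B16, since the MC38 tumors had 188 to 196 CPM, within the B16 range. *Snap25*, a vesicle fusion protein of nerve endings, had 0 counts in all 3 B16 tumors.

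A second group held 8 genes of cilia and flagella, with a summed level of 451, 421 and 397 CPM in B16 and 0.788 to 3.01 CPM elsewhere. *Dnaic1*, an intermediate chain of the outer dynein arm, had 108, 114 and 114 CPM. *Cfap54*, of the central pair of motile cilia, had 109, 87.8 and 94.5 CPM, and the doublecortin family gene *Dcdc2a* had 88.2, 64.4 and 62.2 CPM. *Ccdc13*, a centriolar satellite protein, had 50.8, 67.6 and 51.8 CPM, and *Dnah7b*, an axonemal dynein heavy chain, 49.1, 48.9 and 42.7 CPM. In *Dnah7b*, 48.4% of the 50-base words of the transcript also occur in *Dnah7c* or *Dnah7a*, so its reads could be split among them. *Dnah7c* itself had 1.44, 1.51 and 1.14 CPM in B16 and *Dnah7a* had 0 counts there. *Fkbp6*, an immunophilin of male meiosis, was the highest of 3 germ cell genes with 143, 131 and 150 CPM.

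Genes of peripheral and central glia made up 4 members. *Gjc3*, the glial connexin 29, had 48.9, 53 and 54.5 CPM, *Fabp7*, the brain lipid-binding protein, 10.9, 12.1 and 14.2 CPM, *Cmtm5* 7.03, 14.1 and 10.4 CPM, and the glial filament *Gfap* 7.22, 9.28 and 4.85 CPM. *Fabp7* and *Gfap* are in a list of 17 Schwann cell and neural crest genes. Among the 14 tested genes of that list that are not members, 5 were higher in B16, among them *S100b* (log2 fold change 8.48 ± 0.38 SE), *Cdh19* (8.33 ± 0.27), *Pou3f1* (3.74 ± 0.35) and *Mbp* (3.45 ± 0.25), with adjusted p from edgeR of at most 7.1e-07. *Ngfr*, *Sox2*, *Egr2* and *Prx* were lower and 5 were not called. The median log2 fold change of these 14 was -0.35, beside -0.03 over all 15641 tested genes that are not members.

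Transcription factors were few. *Foxr2*, a forkhead factor on the X chromosome, had 79.6, 87.4 and 65.4 CPM, and *Lmx1b*, a LIM homeobox factor, 12.6, 12.3 and 11.5 CPM. *Zfp536* had 7.57, 6.89 and 4.6 CPM and *Pou3f2*, the POU factor BRN2, 6.28, 4.23 and 5.81 CPM. Of 16 tested regulators of the melanocyte lineage that are not members, 8 were higher in B16, among them *Pax3* (7.02 ± 0.15), *Tbx2* (5.16 ± 0.31) and *Erbb3* (3.46 ± 0.15), and 4 were lower, *Sox9*, *Lef1*, *Tfec* and *Msx1* (adjusted p from edgeR at most 0.0069 for all 12). Also called higher were *Sox5*, with model means of 23.4 CPM in B16 and 29.2 CPM in EO771, and *Irf4*, with 10.9 CPM in B16 and 12.2 CPM in Pan02. *Lef1* had 0.597 CPM in B16 and 0.344 CPM in EO771, and *Msx1* 0.944 CPM in B16 and 0.63 CPM in LL2.

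*Mcoln3*, an endolysosomal cation channel, was the member that fell in the list of melanosome transport and maturation. It had 11.5, 17.1 and 14.5 CPM in B16. Of the 26 other genes of that list, 17 were higher in B16, 1 was lower (*Tpcn2*, log2 fold change -1.07 ± 0.13, adjusted p = 1.2e-05 by edgeR) and 8 were not called. The median over the 26 was 2.33. *Trpm1*, with 689 to 1028 CPM in B16, and *Tspan10*, with 884 to 1170 CPM, missed the set because their highest other tumor had 1.6 and 1.46 CPM. *Slc24a4*, a potassium-dependent sodium and calcium exchanger whose human gene is linked to hair and eye colour, was a member with 20.6, 29.7 and 17.9 CPM.

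*Gsdmc* stood without its closest relatives. On chromosome 15 it lies in a row with *Gsdmc2*, *Gsdmc3* and *Gsdmc4*, all on the minus strand. In the 3 B16 tumors *Gsdmc2* had 0, 0.0302 and 0.0247 CPM, *Gsdmc3* 0, 0.0302 and 0 CPM and *Gsdmc4* 0.0996, 0.0907 and 0 CPM, each within 3 counts. The copies differ enough to be told apart by sequence. Of the 50-base words of the *Gsdmc* transcript, 16.4% also occur in a neighbouring copy, and over the 7 coding exons of equal length 152 of 704 bases differ between *Gsdmc* and *Gsdmc2*. Their second coding exon is printed 5′ to 3′ from GENCODE M21 (GRCm38, minus strand), at chr15:63803576-63803753 for *Gsdmc* and chr15:63834930-63835107 for *Gsdmc2*, to show how far the high gene and its neighbour with hardly a count differ. Capitals mark the 37 of 178 bases at which *Gsdmc2* differs.
Gsdmc: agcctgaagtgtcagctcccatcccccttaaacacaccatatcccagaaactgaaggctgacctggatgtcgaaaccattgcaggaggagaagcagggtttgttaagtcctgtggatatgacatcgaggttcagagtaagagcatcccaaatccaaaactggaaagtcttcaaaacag
Gsdmc2: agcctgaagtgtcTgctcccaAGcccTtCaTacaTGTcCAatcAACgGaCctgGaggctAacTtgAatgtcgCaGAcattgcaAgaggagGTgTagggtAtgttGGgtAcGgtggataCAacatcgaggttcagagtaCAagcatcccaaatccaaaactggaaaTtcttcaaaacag

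The wider family and its partners did not follow *Gsdmc* as a group. Of 10 gasdermins 3 were tested, *Gsdmc* itself, *Gsdme* and *Gsdmd*, and 7 were too low. *Gsdme*, a gasdermin cut by caspase-3, had 9.07, 8.19 and 8.56 CPM in B16 and a median of 2.67 CPM elsewhere (log2 fold change 1.49 ± 0.18, adjusted p = 6.8e-06 by edgeR), although its highest other tumor, with 8.35 CPM, lay within the B16 range. *Gsdmd*, the gasdermin of the inflammasome, had 18.9, 30.3 and 19.7 CPM in B16 and 16.3 to 84.4 CPM elsewhere (-0.87 ± 0.23, below the fold limit). Without B16 tumor 2 its log2 fold change was -1.14 and passed. Of 15 pyroptosis partners, 1 was higher in B16, the adaptor *Pycard* (65 against 12.6 to 26.3 CPM as model means, 1.82 ± 0.28), and 8 were lower, including *Casp1* (-1.9 ± 0.25), *Aim2* (-3.64 ± 0.2), *Nlrp3* (-2.08 ± 0.42) and *Il1b* (-3.89 ± 0.74), with a list median of -1.0. Myeloid cells carry several of these genes. The leukocyte list (12 genes) summed to 714 to 1569 CPM in B16 and 1461 to 7544 CPM in the other tumors, with 9 of its 12 genes lower in B16, and its part in the lower partners was not tested. In whole fragments, fewer cells of a type and less RNA per cell cannot be told apart.

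*Abca12* was the one ABCA transporter in the set. Of the 11 other ABCA genes tested, 3 were higher in B16, *Abca3* (1.06 ± 0.15), *Abca6* (1.49 ± 0.46) and *Abca8b* (1.76 ± 0.3), and 2 were lower, *Abca1* (-1.05 ± 0.3) and *Abca9* (-2.23 ± 0.46), with adjusted p from edgeR of at most 0.012. Pan02 had higher model means than B16 for *Abca3* (94 and 70.8 CPM) and *Abca6* (1.68 and 1.58 CPM). *Abca3* (0.98) and *Abca6* (1.0, adjusted p = 0.14 by edgeR) lost their calls without B16 tumor 2. *Abca1* lost its call, with values from -0.89 to -1.0, without B16 tumor 1 or 3, MC38 tumor 1 or 3 or Pan02 tumor 3. *Abca13* had 0.448, 0.121 and 0.346 CPM in B16 and was not tested. Among 10 other tested genes of the epidermal lipid barrier, 3 were higher in B16 (*Smpd1* 2.95 ± 0.1, *Nipal4* 1.73 ± 0.39, *Aloxe3* 1.05 ± 0.37), 3 were lower (*Asprv1*, *Tgm1*, *Cers3*) and 4 were not called. *Nipal4* had a higher model mean in Pan02 (1 CPM) than in B16 (0.625 CPM). *Aloxe3* had a higher one in EO771 (2.93 CPM) than in B16 (0.864 CPM). The summed keratinocyte list was lowest in B16, though not each of its genes. The 19 listed genes summed to 6.35 to 7.47 CPM there and to 13.8 to 199 CPM in the other tumors, and *Krt5*, *Krt1*, *Krt15*, *Ivl* and *Dsg3* had 0 counts in all 3 B16 tumors. Of the 12 keratinocyte genes tested, 0 were higher in B16 and 5 were lower. *Edaradd*, the adaptor of the ectodysplasin receptor in skin appendages, had 6.33, 4.2 and 4.78 CPM.

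*Bfsp2* was high without its partner. *Bfsp1* (filensin), with which phakinin assembles the beaded filament, had 0, 0 and 0.198 CPM in the B16 tumors and 0.186 to 4.69 CPM elsewhere, and was lower in B16 (-3.69 ± 0.83, adjusted p = 0.0016 by edgeR). A second lens gene, *Gja3*, encoding the lens fibre connexin 46, was a member with 8.92, 8.83 and 12.2 CPM and at most 2 counts in any other tumor. Of the 10 other lens genes tested, 3 were higher in B16, the small heat shock protein *Cryab* (1.98 ± 0.55, adjusted p = 0.006 by edgeR), the lens heat shock factor *Hsf4* (3.6 ± 0.24, 2.1e-08) and the homeobox factor *Prox1* (3.79 ± 0.51, 2.2e-05). *Bfsp1*, *Cryaa*, *Cryba4*, *Crybb1* and *Crybb3* were lower, *Maf* and *Pax6* were not called, and the list median was -1.44. The lower crystallins held at most 0.242 CPM in any B16 tumor, so that their values rest on few counts. Model means of *Crybb1* were 14.6 CPM in Pan02, 0.0992 to 0.184 CPM in EO771, LL2 and MC38, and 0.0699 CPM in B16. Those of *Cryaa* were 3.53 CPM in EO771, 3.03 CPM in Pan02, 0.101 CPM in LL2, 0.19 CPM in MC38 and 0.0165 CPM in B16. *Cryaa* lost its call without any 1 of the B16 tumors (adjusted p 0.063 to 0.08) and *Crybb1* without B16 tumor 2 or 3, EO771 tumor 1 or LL2 tumor 3 (0.052 to 0.072). *Lim2*, *Crybb2* and *Cryba1*, structural genes of the lens that were not tested, had 0 counts in the B16 tumors.

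Glutathione transferases, which couple glutathione to toxic compounds, gave 4 members. *Gsta1* (chr9:78230669-78242683) had 15.6, 17.2 and 13.3 CPM, *Gm3776* (chr9:78257129-78269166) 12.6, 11.4 and 11.5 CPM, *Gm10639* (chr9:78289928-78305525) 9.87, 11.9 and 6.21 CPM, and *Gstm6* on chromosome 3 4.28, 6.65 and 4.8 CPM. *Gsta1*, *Gm3776* and *Gm10639* stand in a row on the plus strand and are near-identical: 89.7%, 92.5% and 60.4% of their 50-base words occur in another copy, and the coding sequences of *Gsta1* and *Gm3776* differ at 2 of 669 bases. How the counting divided reads among them is uncertain, and they are best read as 1 signal. *Gsta2*, close by on the minus strand and outside the set, had 39.1, 42.3 and 28.5 CPM in B16 but 22.4 CPM in Pan02 tumor 3 (log2 fold change 5.57 ± 0.88, adjusted p = 9.3e-05 by edgeR). *Gsta4* (3.74 ± 0.17), *Gstm5* (2.82 ± 0.16), *Gstm7* (2.55 ± 0.33), *Gstm1* (1.61 ± 0.12) and *Gstm2* (1.59 ± 0.15) were also higher in B16 and *Gsta3* was not called (0.26 ± 0.23). These relatives were picked after their values were seen. The fifth coding exon of the 4 copies, from GENCODE M21 in GRCm38, shows how little separates them. It is at chr9:78241527-78241658 in *Gsta1*, chr9:78268010-78268141 in *Gm3776*, chr9:78304372-78304503 in *Gm10639* and, on the minus strand, chr9:78332087-78332218 in *Gsta2*. Capitals mark bases that differ from *Gsta1*, of which there are 0 of 132 in *Gm3776*, 5 in *Gm10639* and 5 in *Gsta2*.
Gsta1: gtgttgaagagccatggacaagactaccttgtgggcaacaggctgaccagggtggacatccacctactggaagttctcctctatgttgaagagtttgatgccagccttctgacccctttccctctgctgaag
Gm3776: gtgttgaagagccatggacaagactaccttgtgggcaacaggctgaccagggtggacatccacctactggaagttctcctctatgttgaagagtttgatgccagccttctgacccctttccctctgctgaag
Gm10639: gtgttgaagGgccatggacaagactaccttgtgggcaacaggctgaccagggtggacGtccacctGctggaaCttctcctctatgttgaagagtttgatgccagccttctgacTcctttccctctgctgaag
Gsta2: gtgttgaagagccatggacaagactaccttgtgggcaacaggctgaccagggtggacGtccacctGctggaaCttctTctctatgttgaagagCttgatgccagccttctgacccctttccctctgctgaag

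Levels also varied among the 3 B16 tumors. The coefficient of variation of the members (CV, the SD as a share of the mean) had a median of 19.2%, beside 11% for all 11060 symbols with at least 5 CPM in B16 and 10.9% for the 10 pigment genes. These sets were not matched for level. Members had a median of 10.8 CPM, and the part of counting error in their CV was not tested. *Syt9* (1.18%), *Dnaic1* (2.91%) and *Fam241b* (3.18%) varied least. *Kcnj13*, an inward rectifier potassium channel of the retinal pigment epithelium, varied most, with 92.5, 216 and 27.3 CPM (85.7%), followed by *Fstl4* (10.2, 14.1 and 4.95 CPM, 47.3%) and *Cpne4* (9.12, 14.2 and 6.24 CPM, 40.8%). All 3 were highest in tumor 2 and lowest in tumor 3. Over the whole set 43 members were lowest in tumor 3, 23 in tumor 1 and 15 in tumor 2. *Gsdmc* and *Abca12* were lowest in tumor 2 and highest in tumor 3. Exons of *Gigyf2* cover 49.1% of the 1270 exon bases of *Kcnj13* in GENCODE M21, while the transcript counted here has 3051 bases. *Gigyf2* had 71.2 to 80.3 CPM in B16 and 64.9 to 112 CPM in the other tumors, where *Kcnj13* had at most 0.34 CPM. The part of shared reads in the *Kcnj13* values was not tested. The counting did not use strand.

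The residual levels outside B16, which the rule caps at 1 CPM without comparing the models, differed among tumors. The 12 other tumors held a median of 27 counts per member in all, with 1.5 for *Gm10639* at the low end and 99.5 for *C530008M17Rik* at the high end. 69 members had over 3 counts in at least 1 of these tumors, 26 in at least 6 of them, and 12 in none. The summed level of the set was lowest in EO771, with 9.03, 9.9 and 12.4 CPM, and reached 12.5 to 16.1 CPM in LL2, 14.5 to 17.4 CPM in MC38 and 13.9 to 20.7 CPM in Pan02. Each of the 4 models was also compared with the mean of the other 3 in the same edgeR fit. The rule had held all of these values under 1 CPM and the members passed the filter on low counts through B16, so the counts are given as a description, nothing is read from them, and no test of a single member is given. In EO771, 14 members were called (4 higher, 10 lower), or 17.3%, beside 23.4% of all genes tested. LL2 had 7 (6 higher, 1 lower), or 8.64% beside 15.6%, MC38 12 (11 higher, 1 lower), or 14.8% beside 20.4%, and Pan02 15 (14 higher, 1 lower), or 18.5% beside 26.8%. Without MC38 tumor 1 the MC38 count was 6, and without Pan02 tumor 2 or 3 the Pan02 count was 7 or 6.

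In 9 of the 48 calls all 3 tumors of the model lay above the other 9 tumors. The same share over all genes was not computed, so nothing is read from this count. The 6 members named here were picked from those 9 calls. *Ccdc13* had 0.921, 0.51 and 0.609 CPM in EO771 (17.5, 6 and 7 counts) and at most 0.239 CPM in the other 9 tumors. *Glrb* had 0.949, 0.786 and 0.674 CPM in LL2 and at most 0.54 CPM in the other 9, and *Cfap54* had 0.915, 0.471 and 0.459 CPM against at most 0.288 CPM. In MC38, *Pde1c*, a calmodulin-dependent phosphodiesterase, had 0.575, 0.824 and 0.934 CPM against at most 0.41 CPM, and *Hymai*, an imprinted non-coding RNA, 0.34, 0.292 and 0.486 CPM against at most 0.255 CPM. In Pan02, *B3galt5*, a galactosyltransferase, had 0.592, 0.441 and 0.738 CPM against at most 0.374 CPM. Most of these genes were read in further models too: *Glrb* had over 3 counts in 8 of the 12 tumors, *Pde1c* in 7, *B3galt5* in 6, and *Ccdc13* and *Cfap54* in 5 each, while *Hymai* had over 3 counts in 3.

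Elsewhere levels were low rather than high in 1 model. *Dnah7b* had at most 0.0849 CPM in EO771 and 0.157 to 0.909 CPM in the other 9 tumors, and *Dgki* at most 0.17 CPM in EO771 and 0.315 to 0.655 CPM in the others. *St6galnac3*, a sialyltransferase, had 0.136, 0.314 and 0.184 CPM in LL2 and 0.347 to 0.826 CPM in the others. Other members overlapped between models. *Rgs7bp* had 0.542, 0.838 and 0.919 CPM in LL2 and up to 0.682 CPM in the others, *Arfgef3* had 0.732, 0.824 and 0.261 CPM in MC38 and up to 0.342 CPM, and the docking protein *Dok5* had 0.752, 0.883 and 0.54 CPM in Pan02 and up to 0.71 CPM.

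**Figure D3:**
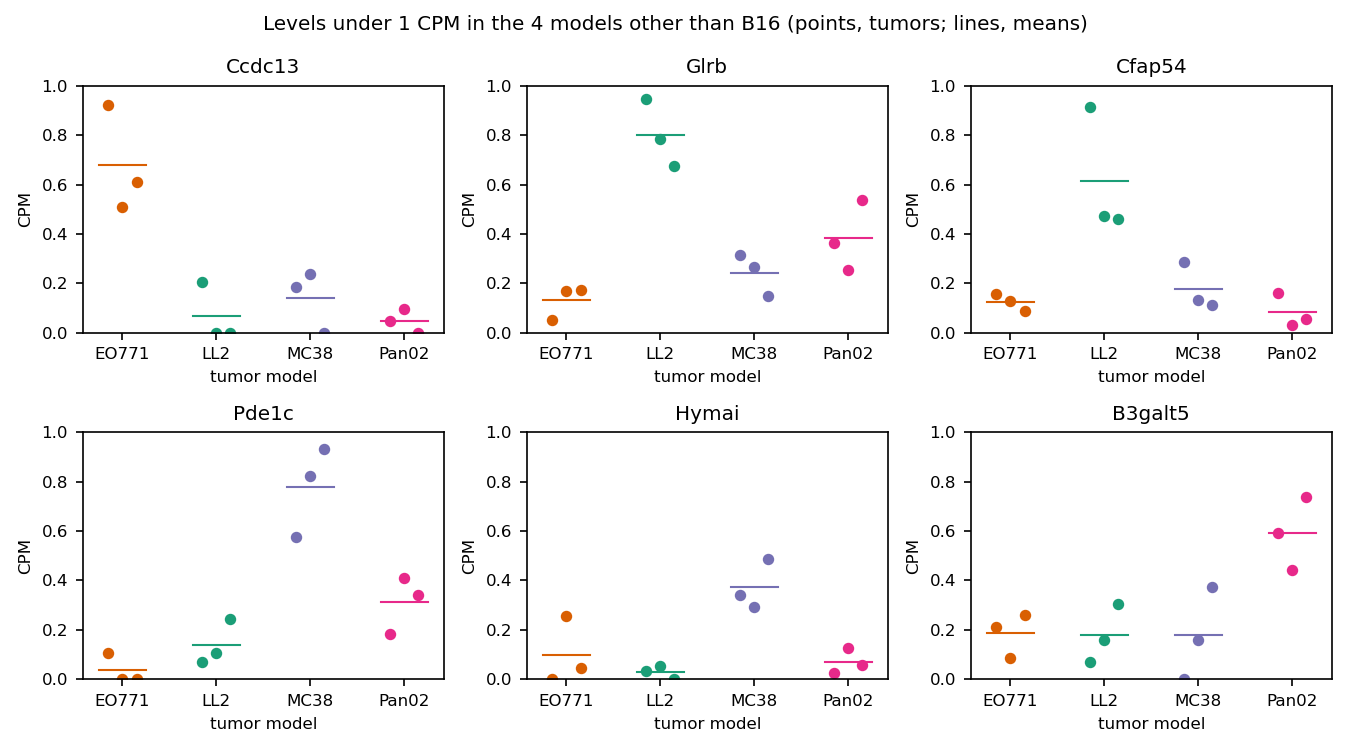
Points are the single tumors of the 4 models other than B16 and lines their means, in CPM on a linear axis from 0 to 1, for 6 members. The 6 members were picked from the calls. All 3 tumors of 1 model lie above the other 9 in each panel: EO771 for Ccdc13, LL2 for Glrb and Cfap54, MC38 for Pde1c and Hymai, and Pan02 for B3galt5.

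Reads of the pigment genes were also present at a trace in every other tumor. *Tyrp1*, *Dct* and *Pmel*, the 3 with the highest counts in B16, were at 0.0243% to 0.159% of their B16 mean in each of the 12. For 68 members the mean over the 12 tumors was above 0.159% of the B16 mean, and for 13 it was at or under it. Among the latter were *Gsdmc* (0.0517%), *Foxr2* (0.0703%), *Dcdc2a* (0.0714%), *Gpr37* (0.0743%) and *Bfsp2* (0.132%). The median member was at 0.836% and the highest, *Edaradd*, at 8.09%. The limit of 0.159% is the highest value of a single tumor, while the members are given as means over 12. For members low in B16 it stands for few counts, so the split depends on the B16 level. The part of this trace in the residual levels of the members was not tested.

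In sorted CAFs the members were low. Values there are RPKM, reads per kilobase of transcript scaled to the depth of the library, and only 1 of the 81 members (1.23%) reached 1 RPKM in any of the 8 libraries, beside 57% of all symbols. The rule favours this, because it held each member under 1 CPM in whole tumors of the same models, which contain CAFs. The share over all symbols is under no such limit, so nothing is read from the difference. *Gsdmc* was at most 0.091 RPKM, *Abca12* at most 0.021, *Bfsp2* at most 0.207 and *Glrb* at most 0.291 RPKM. The exception was *Gstm6*, with 2.62 and 1.18 RPKM in the MC38 CAFs and 0.049 to 0.309 RPKM in the other 6 libraries. It reached the level needed for a test only through these 2 libraries, so no test is given. In MC38 tumors *Gstm6* had 0.235, 0.399 and 0.523 CPM. Behind it came *AI429214* with at most 0.871 RPKM, *Dok5* with 0.775, *Gm4876* with 0.68 and *Cort* with 0.619 RPKM. The fibroblast gene *Col1a1* had 467 to 3773 RPKM in the same libraries. No B16 CAFs were analysed here, so that the cells that carry the members within B16 tumors were not compared.

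**Figure D4:**
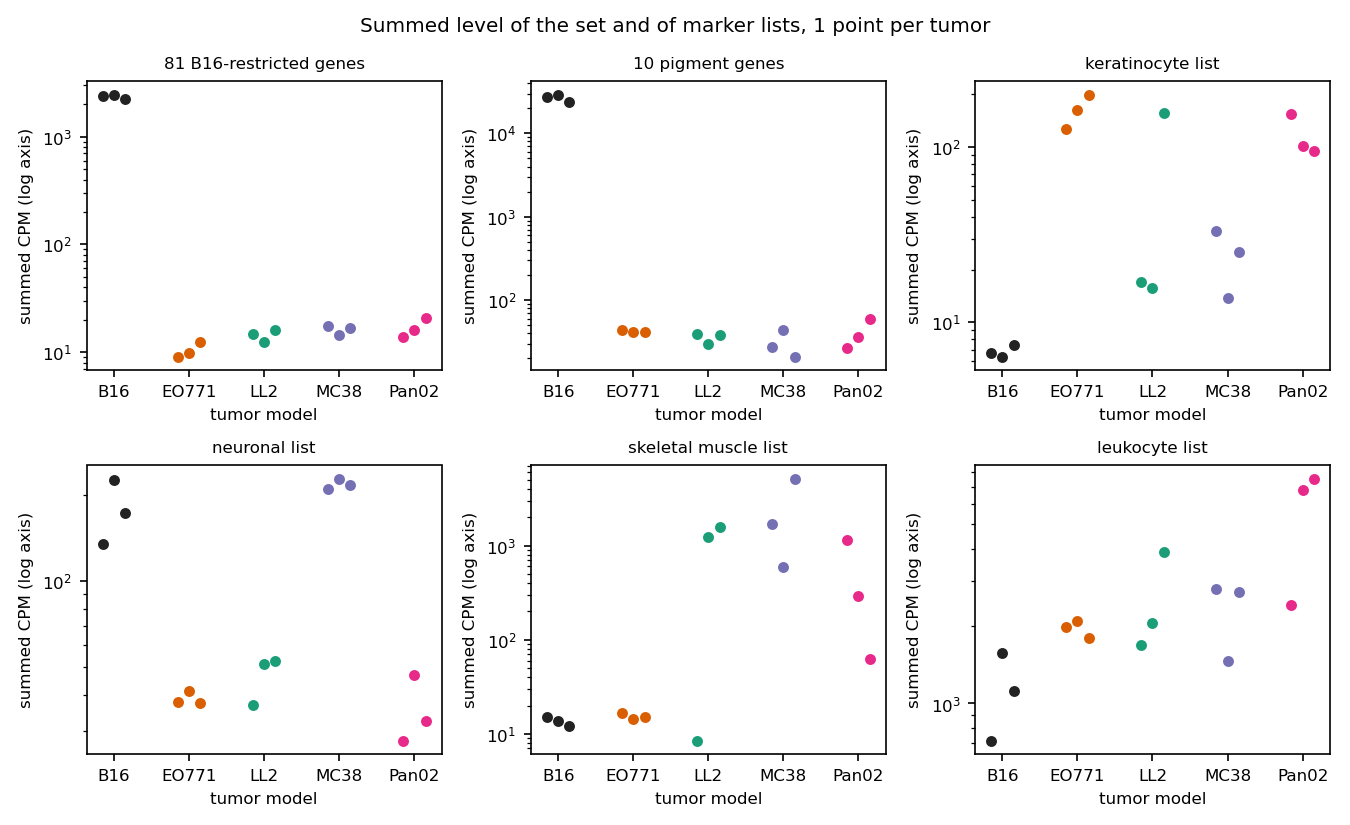
Each point is 1 tumor, with the summed CPM of a gene list on a log axis, for the 81 members, the 10 pigment genes and 4 lists of other cells. The B16 tumors have 2222 to 2457 CPM of the members and 6.35 to 7.47 CPM of the keratinocyte list. The skeletal muscle list is low in B16 (12 to 15.2 CPM), in EO771 (14.3 to 16.7 CPM) and in 1 LL2 tumor, and the neuronal list (135 to 227 CPM in B16, 211 to 229 CPM in MC38) is mostly Tubb3.

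Lists of other cell types were read in the same tumors. Of the tested genes of each list, 0 were higher and 11 of 15 lower for skeletal muscle, 0 higher and 12 of 12 lower for fibroblasts, 0 higher and 1 of 10 lower for adipocytes, and 1 higher and 2 of 8 lower for endothelium. The retinal pigment epithelium list, which belongs to the other pigment cell of the eye, had 4 of 8 genes higher and 3 lower, with a summed level of 31.6 to 43.5 CPM in B16 and 49.6 to 367 CPM elsewhere. Among the genes called higher, *Rdh5* (11.9 and 5.07 CPM) and *Lrat* (1.58 and 1.11 CPM) had higher model means in Pan02 than in B16. The endothelial list summed to 558 to 739 CPM in B16 and 248 to 539 CPM elsewhere, but 1 gene, *Eng* (endoglin), made up 457 to 543 CPM of the B16 sum, and the other 7 genes summed to 101 to 196 CPM in B16 and 102 to 402 CPM elsewhere. The skeletal muscle list was as low in EO771 (14.3 to 16.7 CPM) as in B16 (12 to 15.2 CPM) and lower in LL2 tumor 1 (8.4 CPM). The fibroblast list summed to 923 to 2650 CPM in B16 and 4653 to 53069 CPM elsewhere. The part of these differences in cell content in the levels of the members was not tested.

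By position, chromosome 9 held 12 of the 81 members, or 14.8%, and 5.49% of all symbols. These 12 include the near-identical *Gsta1*, *Gm3776* and *Gm10639* and the overlapping pair *Bfsp2* and *5830418P13Rik*, whose reads are not independent. Members lay within 100 kb of another member in 4 places. *5830418P13Rik* runs antisense to *Bfsp2* and had 21.8, 24.8 and 32.1 CPM in the B16 tumors, in the same order as *Bfsp2* itself. The pair shares 201 exon bases, 12.1% of *Bfsp2*, and without strand those reads cannot be assigned to one or the other. *Lmx1b* and the non-coding *C130021I20Rik* start 682 bases apart on opposite strands, and *C130021I20Rik* had 10.2, 16.7 and 10.4 CPM. *Eps8l3* and *Gstm6* lie 45948 bases apart, and *Gsta1*, *Gm3776* and *Gm10639* form the row described above. *Eps8l3* shares 42.4% of its exon bases with *4933431E20Rik* (25.5 to 30.1 CPM in B16), and *Gm15743* 28% with *Bdh1* (56.9 to 78.3 CPM in B16), both higher in B16 as well.

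Genes next to the members were looked at after the set was known. The nearest tested gene on each side within 100 kb, members excepted, gave 95 genes beside 63 members. Of these, 28 (29.5%) were higher in B16 and 15 lower, where 13.1% and 19.6% of all tested genes were, and their median log2 fold change was 0.34 beside -0.03. Without the glutathione transferase members it was 24 of 91, and within 50 kb 23 of 68. Glutathione transferases aside, the largest rises were in *Gjb2*, *Cntfr* and *Cttnbp2*. *Gjb2*, encoding connexin 26, beside *Gja3* had 278, 356 and 273 CPM in B16 and at most 2.1 CPM elsewhere (8.21 ± 0.16, adjusted p = 1.2e-13 by edgeR). *Cntfr*, a cytokine receptor subunit, lies beside *Dnaic1* (6.61 ± 0.3, 4.6e-10) and *Cttnbp2* beside *Cftr* (4.32 ± 0.41, 8.9e-07). The largest falls were in *Ngef* beside *Kcnj13* (-5.65 ± 0.68, 7.6e-06) and *Ptn* beside *Dgki* (-4.11 ± 0.34, 2e-07). Flanking genes of 1 member are not independent of each other.

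Promoters were taken from RefSeq (GRCm38.p6, from 250 bases before to 50 after the start). Of 81 members 69 had an entry and 64 had one within 100 bases of the deposited transcript start. The sequences bound by *Mitf* share a core that is either CACGTG (E-box) or CATGTG, read as CACATG on the other strand (M-box core). CACGTG occurred in 7 of the 64 (10.9%) and in 7.15% of all 32851 promoters of the table, and the M-box core in 9 (14.1%) and 14.2%. The extended forms TCACGTGA, TCATGTGA and TCACATGA, which contain those cores, were in 0 of the 64 and in 1.94% of all. The SOX words ACAAAG and ACAAT on either strand were in 12.5% and 17.2% of member promoters and in 18.7% and 31% of all, and TATAAA in 3.12% and 8.32%. Of the 10 pigment genes 5 had an entry at the deposited start, and 4 of them held the M-box core, 0 the extended forms and 0 CACGTG. Median GC content was 58.7% in the members and 52.7% over the table, and its part in these shares was not tested.

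Printed 5′ to 3′ are 120 bases up to the start of *Tyrp1*, for a pigment gene with the M-box core, and of 3 members, to show what such words look like in the set. They lie at chr4:80834093-80834212 (plus strand) for *Tyrp1*, chr12:102128607-102128726 (plus) for *Slc24a4*, chr5:135350045-135350164 (minus) for *Fkbp6* and chr1:87394730-87394849 (minus) for *Kcnj13*. Capitals mark the M-box core on either strand, the E-box and TATAAA.
Tyrp1: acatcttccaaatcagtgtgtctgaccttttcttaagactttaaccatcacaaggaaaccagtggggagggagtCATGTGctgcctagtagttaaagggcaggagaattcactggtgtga
Slc24a4: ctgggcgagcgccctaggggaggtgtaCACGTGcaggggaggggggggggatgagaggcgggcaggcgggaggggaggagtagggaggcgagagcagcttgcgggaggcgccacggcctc
Fkbp6: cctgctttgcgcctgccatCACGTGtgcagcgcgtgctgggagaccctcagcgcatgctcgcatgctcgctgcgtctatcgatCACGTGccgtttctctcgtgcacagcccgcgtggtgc
Kcnj13: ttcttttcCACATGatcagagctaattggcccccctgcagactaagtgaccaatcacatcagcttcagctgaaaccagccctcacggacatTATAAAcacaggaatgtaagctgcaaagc

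*Fkbp6* holds CACGTG at 2 places, the first beginning 101 bases before the start, *Slc24a4* at 1 place beginning 93 bases before it, and *Kcnj13* holds both CACATG and TATAAA. The same stretch of *Abca12* holds none of these words. A match is a description of the letters and not a bound site.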

How the data were processed

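RNA from fragments of 15 tumors and from 8 CAF libraries was sequenced by the authors from unstranded polyA libraries (NEBNext). Reads were aligned to mm10 with STAR 2.5.0c and quantified with HOMER per RefSeq transcript, and the submitters' notes also name DESeq2. The deposited tumor values are estimated counts in steps of 0.5, which is an expected count per transcript, and the deposited CAF values are RPKM. The depth of the CAF libraries is unknown.

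Counts were rounded up to whole numbers for testing, and the transcript with the largest mean count stood for its symbol. 2 transcripts that name no gene were left out. CPM were computed over these rows. edgeR 4.0.16 (TMM, filterByExpr, quasi-likelihood F test, Benjamini-Hochberg over 15722 genes) was fitted to all 15 tumors with 1 term per model, and limma 3.58.1 with a variance trend to log2(RPKM + 1) of genes that reached 1 RPKM in 2 or more CAF libraries. Calls required adjusted p under 0.05 with log2 fold changes of 1 or more in size. SE is the log2 fold change divided by the root of F. On simulated counts for the B16 comparison (15410 genes), edgeR and DESeq2 1.42.0 each recovered 200 of 200 genes changed 4-fold with 1 false call, and limma 200 of 200 with 0 for the MC38 CAF comparison (12800 genes). The changed genes were drawn from well-read ones, all genes had the same spread, and unchanged genes were equal over the models. This setting is easier than the data and does not show how genes with few counts fare. Exon overlap and shared 50-base words were read from GENCODE M21.

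The members and the gene lists were chosen with earlier results of these data known. Named were *Gsdmc*, *Abca12* and *Bfsp2*, the 20 members highest in B16, members from the top 5 calls per model by p (values only, not all of them), members at 1 RPKM or more in CAFs, 3 symbols on either side of each limit, members near another member, members and called genes of the lists, and the 3 most and 3 least variable members. Others named were chosen after their values were seen. Values of 3 of these genes are not reported here. The labels say nothing on separate cultures or batches, so p-values measure the spread between these samples, which may be technical. Limits of 3 counts cover counting error only. 5 columns of other samples were not used here. R 4.3.3 and Python 3.11.15 were used.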

Additional observations from a re-analysis of the deposited data

How the results depend on the processing

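The set kept 77 to 81 of its members under each way of counting tried. It held 81 genes with TMM-scaled CPM (80 shared, without *Hcar1*), 82 with DESeq2 size factors, 81 with the longest transcript per symbol, and 79, 79 and 81 without B16 tumor 1, 2 or 3. Leaving out 1 other tumor can only add genes and gave 81 to 86. No other transcript of a member reached 1 CPM outside B16, a check chosen after seeing the data.

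The number of genes higher in B16 was within 1.5 times the reported 2058 with DESeq2, total-count scaling, no filter on low counts, the longest transcript and each tumor left out. The count of called members ranged from 6 to 14 in MC38 and from 6 to 19 in Pan02 over the fits that left out 1 tumor. With a pseudocount of 0.1 the CAF comparisons called 3157 genes in EO771 and 1917 in LL2, against 2054 and 1227. Of 802 checks of 41 further results, nearly all single genes, 780 kept their direction and call, 21 lost the call, 1 gained it and 0 reversed. Many of these results compare a single member among the models other than B16. Such members passed the filter on low counts through B16 and no test of them is given. For them the tally is a description and nothing is read from it. *Gstm6* missed the filter without either MC38 CAF library.

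Tumors with the same number did not deviate together (correlations -0.175 to 0.246 over 30 pairs of tumors, and 4 of 15 tumors correlated best with their own number). No pairing by number was seen, though so few tumors cannot show that none shared a batch. With the replicate block, 2061 genes were higher in B16 and 14, 7, 10 and 14 members were called in EO771, LL2, MC38 and Pan02. No paired analysis was possible for the CAFs because their columns carry no replicate number.

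Levels outside B16 rest on at most 17.5 counts per tumor and gene, so that they carry a large counting error.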
